A study of Rattus norvegicus with 15 samples.

Results

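The mitochondrial ribosomal protein genes of rat liver were followed through experimental cirrhosis and through treatment of cirrhosis with a blocker of the mineralocorticoid receptor (MR). Members were the protein coding rows of the counts table whose symbol is Mrpl or Mrps followed by a number. This gave 76 of 32623 rows, 45 with an Mrpl and 31 with an Mrps symbol. Counts were high enough for testing in 74 of them. The other 2, Mrps21l and Mrps21l.1, are copies of Mrps21 and were at mean levels of 0.015 or less and of 0.181 to 0.198 FPM (counts scaled to a fixed library size) in the 3 groups.

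Mitochondria translate their own short genome with a ribosome that is separate from the cytosolic one. Its RNA comes from the mitochondrial genome, whereas all of its proteins are encoded in the nucleus, made on cytosolic ribosomes and imported. It makes the core subunits of the respiratory chain, so mitochondrial and nuclear gene products must be supplied together. Many of its proteins descend from bacterial ribosomal proteins, and others have no bacterial counterpart. Hepatocytes are rich in mitochondria.

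Liver RNA came from male Wistar rats in 3 groups. Cirrhosis was induced by inhaled carbon tetrachloride (CCl4), a hepatocyte toxin, over 12 weeks with phenobarbital (0.35 g/L) in the drinking water, and controls received neither. Rats of the cirrhosis & eplerenone group had the same CCl4 and phenobarbital and in addition the MR antagonist eplerenone, dosed at 100 mg per kg of body weight, starting in week 8 and ending in week 12. Livers of both CCl4 groups were taken 7 to 10 days after the last CCl4. The table holds 4 controls (replicates 2 to 5), 5 cirrhosis rats and 5 cirrhosis & eplerenone rats. The authors excluded a control that differed from the other 4 in a principal component analysis, so the control ranges may be narrow. Animals were chosen for sequencing by how well cirrhosis induction or eplerenone treatment had worked in them, which limits each group as a sample of its treatment. Whole liver was sequenced, so fewer cells of a type and less RNA per cell cannot be told apart.

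Between 16157491 and 21574767 reads per rat were counted on genes, and 3 counts corresponded to 0.121 to 0.191 FPM, which covers counting error only. Members took 0.199 to 0.351% of these reads, and cytosolic ribosomal protein genes 1.23 to 4.09%. The 37 rows of the mitochondrial chromosome were all listed at 0, so the ribosomal RNA that members assemble with has no value here. On the first principal component of the 500 most variable genes, cirrhosis replicate 5 (13.03) lay apart from the other cirrhosis rats (-47.7 to -38.0), and cirrhosis & eplerenone replicate 3 (-42.6) lay among them. Results are therefore also given without these 2 rats (4 samples per group). Animal labels begin with 13 or 16 in controls and with 15 or 20 in CCl4-treated rats. What the prefixes stand for is not given in the sources used here, and prefix and CCl4 treatment cannot be told apart. Markers of several other cell types moved with CCl4. Between control and cirrhosis, 7 of 10 tested stellate cell and myofibroblast markers, 6 of 6 cholangiocyte, 4 of 7 lymphocyte and 5 of 7 proliferation markers rose. Their summed levels were 153 to 252, 14.4 to 23.6, 2.60 to 4.58 and 25.5 to 34.2 FPM in control, 283 to 589.2, 46.4 to 142, 5.83 to 15.5 and 55.2 to 114 FPM in cirrhosis, and 415 to 587, 46.3 to 97.4, 3.57 to 10.3 and 22.8 to 96.0 FPM in cirrhosis & eplerenone. Of 15 hepatocyte markers 1 fell, and 11 had a log2FC below 0 (median log2FC -0.43). Their summed levels were 196945 to 229931, 155817 to 212968 and 120995 to 216984 FPM in the same order of groups. Of 8 macrophage markers 1 rose and 2 fell (median log2FC -0.15), and of 6 endothelial markers 1 rose and 1 fell (-0.73). Summed macrophage levels were 283 to 411 FPM in control, 275 to 484 FPM in untreated cirrhosis and 215 to 508 FPM with eplerenone, and endothelial ones were 185 to 224, 128 to 291 and 160 to 228 FPM. The part of these cells in the values of the members was not tested.

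The first question was which members differed between control and cirrhotic liver. Mrpl48 and Mrpl12 rose and Mrpl43 fell in cirrhosis, and the other 71 tested members did not pass the test (FDR below 0.05 in edgeR's quasi-likelihood test, adjusted over all 14417 genes tested). Of all genes tested, 13.4% rose and 6.71% fell, and the members' shares, 2.7% risen and 1.35% fallen, were smaller. The log2FC was above 0 in 44 members and below 0 in 30, with a median of 0.10. Over all genes the median was -0.01, with 49.3% above 0. With library sizes left unscaled (here and below, scaling by total counts only), 69 members were above 0, with a median of 0.39. But the median of all genes then was 0.28, so that the members lay 0.12 above all genes under both scalings.

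Mrpl48 encodes a large-subunit protein without a bacterial counterpart. It was at 17.6, 13.6, 16.5 and 12.0 FPM in the controls, at 35.9, 20.7, 33.6, 20.5 and 18.9 FPM in cirrhosis and at 16.5, 16.5, 24.5, 21.0 and 30.1 FPM in cirrhosis & eplerenone. Every cirrhosis rat was above every control, with replicates 1 and 3 highest, and the eplerenone rats overlapped both groups. The log2FC was 0.79 ± 0.24 (SE, FDR = 0.034) for cirrhosis and 0.54 ± 0.24 (FDR = 0.219) for cirrhosis & eplerenone, both against control.

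Mrpl12 encodes the stalk protein that recruits translation factors to the ribosome, and it is also known to bind the mitochondrial RNA polymerase. Its levels were 68.6, 60.2, 67.1 and 55.4 FPM in control, 106, 72.1, 127, 98.1 and 84.6 FPM in cirrhosis and 65.0, 55.8, 95.9, 66.4 and 99.4 FPM in cirrhosis & eplerenone. Control and cirrhosis did not overlap, whereas the eplerenone rats reached from the control range into the cirrhosis range. The log2FC against control was 0.64 ± 0.21 (SE, FDR = 0.042) in cirrhosis and 0.28 ± 0.20 (FDR = 0.484) in cirrhosis & eplerenone. Mrpl10, which anchors Mrpl12 in the stalk, had a log2FC of -0.25 (FDR = 0.231) in cirrhosis.

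Mrpl43, another large-subunit protein without a bacterial counterpart, was at 58.7, 58.5, 55.2 and 52.1 FPM in control. It was at 42.3, 40.4, 42.4, 31.6 and 44.6 FPM in cirrhosis and at 40.6, 53.5, 33.1, 38.2 and 42.7 FPM in cirrhosis & eplerenone. All cirrhosis rats were below all controls, and of the eplerenone rats only replicate 2 reached the control range. The log2FC was -0.48 ± 0.15 (SE, FDR = 0.040) in cirrhosis and -0.43 ± 0.15 (FDR = 0.117) in cirrhosis & eplerenone. In the RefSeq annotation of GRCr8 the span of Mrpl43 overlaps Twnk, the gene of the mitochondrial DNA helicase, which had a log2FC of -0.40 (FDR = 0.244). Overlaps of this kind concern 19 of the 74 members found there, also Mrpl48 with Rab6a, Mrpl14 with Tmem63b and Mrpl27 with Eme1. Whether reads were counted by strand is not given in the sources used here, so values of overlapping genes are uncertain.

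The groups did not overlap for 3 members that were higher in cirrhosis (11.2% of all genes) and 1 that was lower (9.03%). Besides the called members this was Mrpl17, at 52.0 to 60.02 FPM in control and 60.05 to 105 FPM in cirrhosis (log2FC 0.56, FDR = 0.068). The largest differences that did not pass were Mrps6 (0.69, FDR = 0.116), Mrps12 (0.62, FDR = 0.099), which shapes the accuracy of decoding, and Mrps18a (0.57, FDR = 0.167) on the higher side. On the lower side were Mrpl49 (-0.80, FDR = 0.154), Mrpl15 (-0.40, FDR = 0.106), Mrps22 (-0.33, FDR = 0.165) and Mrpl14 (-0.29, FDR = 0.368). Without cirrhosis replicate 2 Mrpl49 was called lower (-1.25, FDR = 0.025). Calls depended on which rat was left out. Calls over all genes in such fits are not given, here or below, so the dependence is not read as particular to members. Without cirrhosis replicate 1 or 3, or control replicate 3, 4 or 5, no member was called, without control replicate 2 or cirrhosis replicate 4 there was 1, and without cirrhosis replicate 5 there were 5. Over the 14 fits that left out 1 rat each, Mrpl48 was called in 9, Mrpl12 in 6 and Mrpl43 in 6, each with the same sign throughout. The median log2FC of the members was 0.01 without cirrhosis replicate 3 and 0.19 without cirrhosis replicate 4. With 4 samples per group Mrpl17 and Mrpl45 were called in addition, and the median log2FC was 0.14. In that fit 2732 genes rose and 2100 fell of 14126, beside 5 of 74 members. Both rats left out of it were chosen by their place on the first component of the same data. Its added calls are therefore not counted as results.

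**Figure D1:**
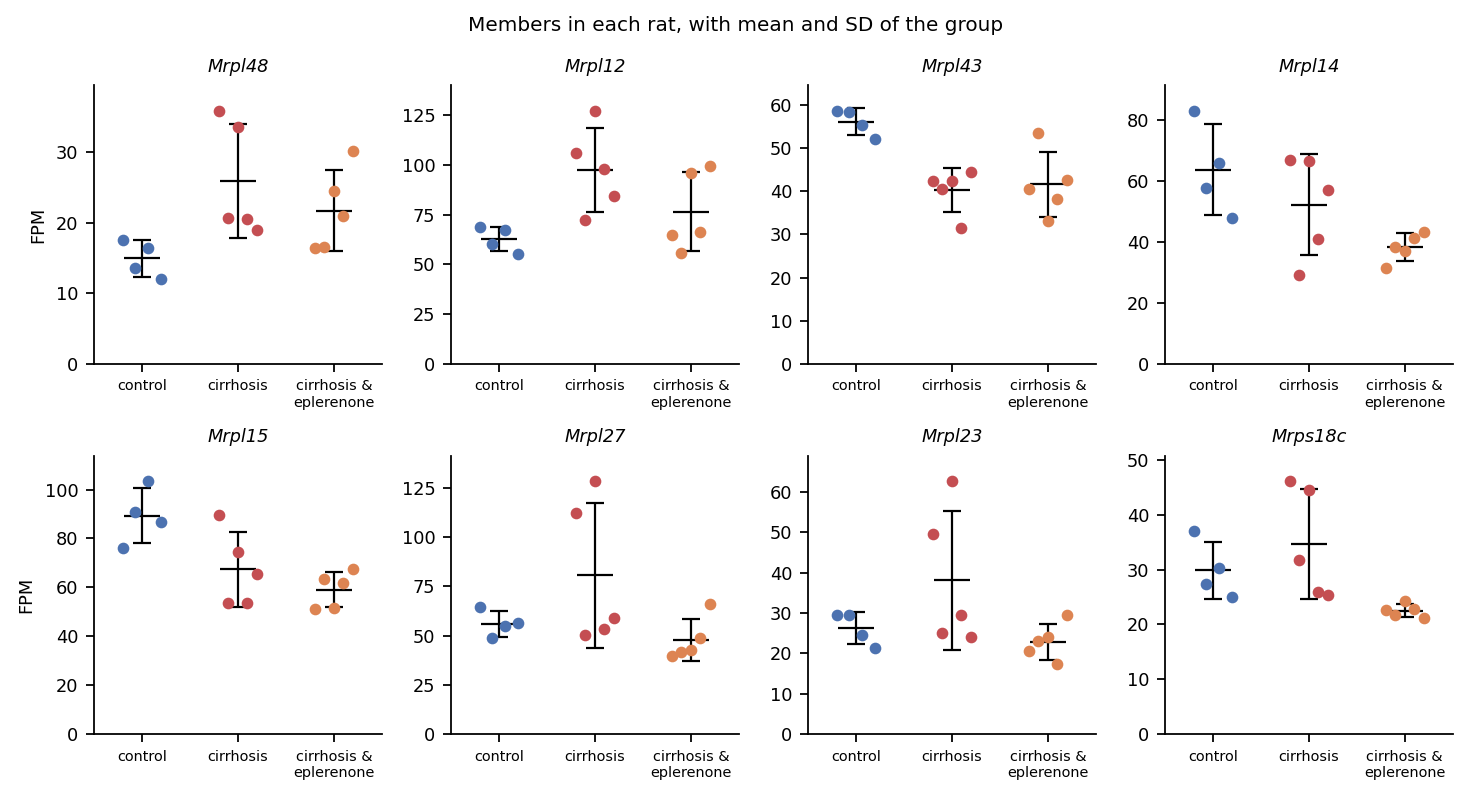
Levels of 8 members (FPM, linear axis from 0) in each of 14 rats, with the mean and SD of each group in black. Mrpl48 and Mrpl12 lay higher and Mrpl43 lower in every cirrhosis rat than in any control, whereas the high cirrhosis means of Mrpl27 and Mrpl23 came from 2 rats.

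Promoters of the members are shown because nuclear genes of mitochondrial proteins are known to be controlled through shared short elements bound by the factors NRF1, GABPA (an ETS protein) and YY1. RefSeq promoter windows of GRCr8, from 250 bases before to 50 bases after the start of transcription, were matched by symbol for 59 of 76 members. The ETS letters CCGGAAG were found on either strand in 20 of these 59 genes (33.9%), against 8.75% of all 33469 windows and 16.5% of the 11180 windows of tested protein coding genes. The YY1 letters AAGATGGCG were found in 9 (15.3%, against 1.73% and 3.41%). The NRF1 element, searched as GCGCA, any base and GCGC, was found in 8 (13.6%, against 4.25% and 9.13%). In the 59 matched cytosolic ribosomal protein genes the ETS letters occurred in 19 (32.2%), the YY1 letters in 3 (5.08%) and the NRF1 letters in 6 (10.2%). No match of one element overlapped a match of another in the members' windows, and 29 of the 59 members held none of them. The 100 bases before the start of the members that rose, or that were higher without overlap with control, follow, with matched letters in capitals (for Mrpl48 the ETS letters on the opposite strand, for Mrpl17 the NRF1 letters, for Mrpl12 no match). They lie at chr1:164351377-164351476 (minus strand, Mrpl48), chr10:106256646-106256745 (plus strand, Mrpl12) and chr1:169575700-169575799 (minus strand, Mrpl17).
Mrpl48: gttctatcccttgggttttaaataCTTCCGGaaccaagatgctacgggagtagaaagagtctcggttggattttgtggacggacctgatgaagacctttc
Mrpl12: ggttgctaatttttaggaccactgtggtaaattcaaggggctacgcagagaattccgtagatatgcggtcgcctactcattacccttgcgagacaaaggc
Mrpl17: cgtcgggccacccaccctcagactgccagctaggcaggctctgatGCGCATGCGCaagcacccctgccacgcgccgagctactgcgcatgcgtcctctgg

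Members with the ETS letters had a median log2FC of 0.16 in cirrhosis against control, and the 39 matched members without them -0.00. In cirrhosis & eplerenone against cirrhosis the medians were -0.34 and -0.24. With and without the NRF1 letters the medians were 0.12 and 0.08 in cirrhosis against control. They were -0.24 and -0.31 in cirrhosis & eplerenone against cirrhosis. For the YY1 letters the medians were 0.11 and 0.04 in the first comparison and -0.24 and -0.27 in the second. The differences between these medians were not tested.

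Members differed more between cirrhosis rats than between groups. The level of a rat was taken as the mean of log2 FPM over the 74 tested members. It was 4.97, 4.83, 4.96 and 4.81 in the controls, 5.27, 4.70, 5.28, 4.73 and 4.87 in cirrhosis and 4.61, 4.73, 4.66, 4.69 and 4.94 in cirrhosis & eplerenone. Cirrhosis replicates 1 and 3 were the highest of all 14 rats, replicates 2 and 4 were below all controls, and replicate 5 lay within them. Some marker lists also set cirrhosis replicates 1 and 3 apart, and others did not. The mean log2 FPM of 6 endothelial markers was 5.40, 3.32, 5.10, 4.24 and 4.35 in cirrhosis replicates 1 to 5, and that of 10 stellate cell and myofibroblast markers was 4.85, 4.10, 4.93, 4.50 and 3.13. Replicates 1 and 3 were the highest of the cirrhosis rats on both lists, and also on the lymphocyte and proliferation lists. For cholangiocyte markers replicate 2 was highest (3.83, against 3.74 and 3.75 in replicates 1 and 3). Replicate 5 was highest for hepatocyte markers (11.71) and stood above replicate 3 for macrophage markers (4.94 against 4.76). The part of these cells in the levels of the members was not tested. Group means were 4.89 ± 0.08 (SD, n = 4), 4.97 ± 0.28 (n = 5) and 4.72 ± 0.13 (n = 5). In each of cirrhosis replicates 1 and 3, 49 of 74 members were above every control (66.2%, against 37.5% and 38.1% of all genes), and replicate 3 held the highest value of all rats for 36 members (48.6%, against 15.9% of all genes). In each of replicates 2 and 4, 33 members were below every control (44.6%, against 31.7% and 36.7% of all genes).

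**Figure D2:**
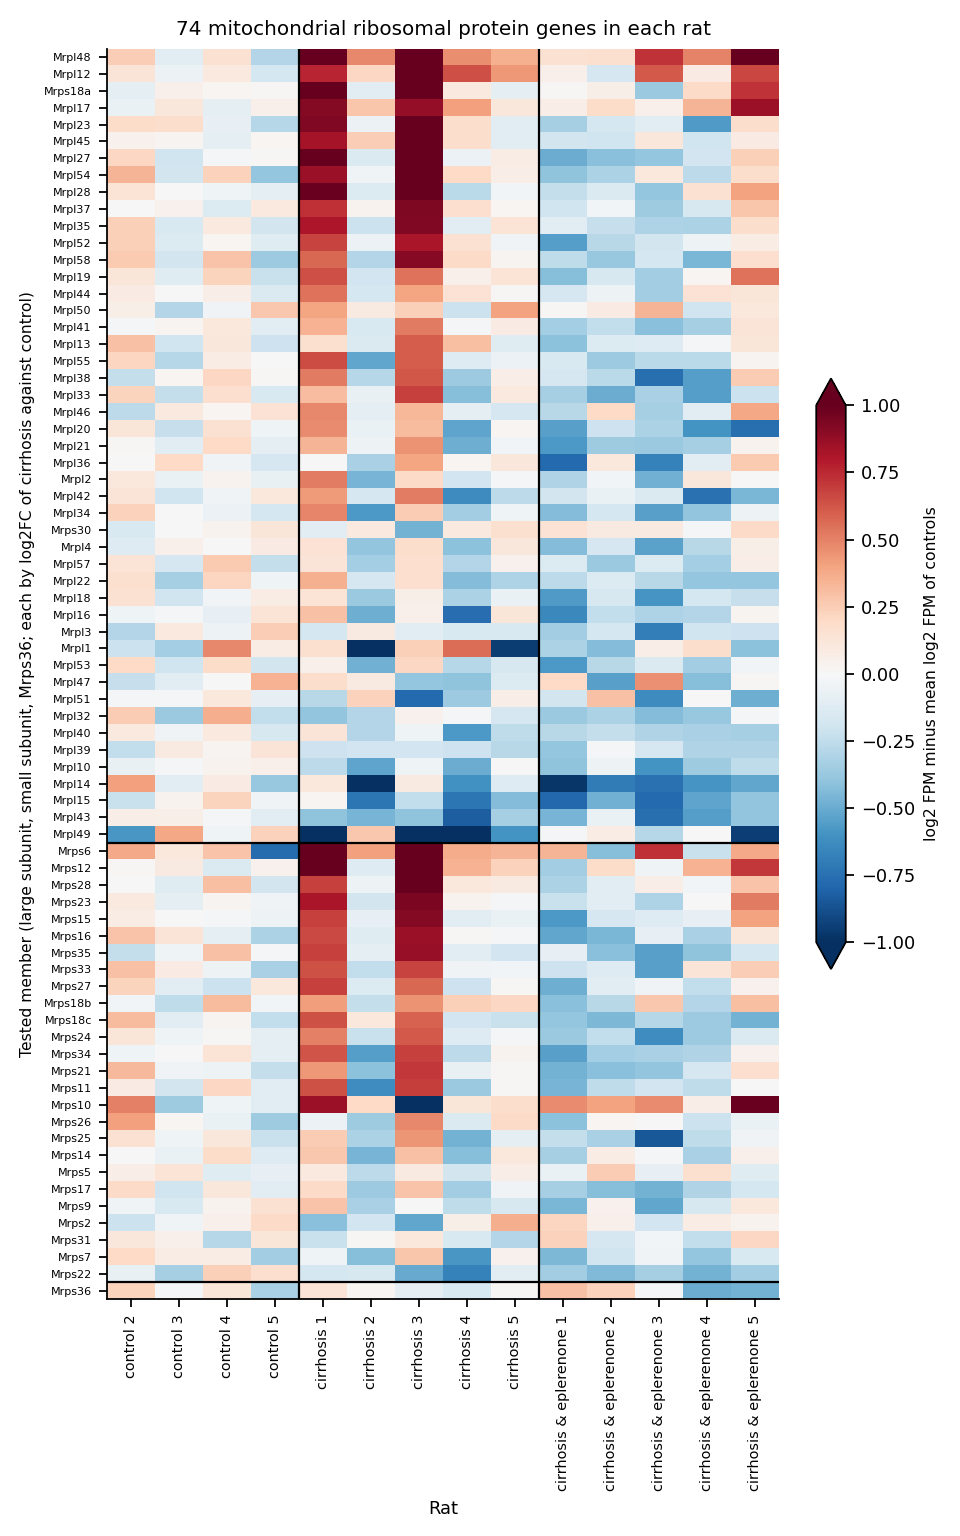
The 74 tested members (rows, by subunit and then by log2FC in cirrhosis) in each rat (columns), as log2 FPM minus the mean log2 FPM of the controls; red is higher and blue lower than control, and colours end at 1. Cirrhosis replicates 1 and 3 are red over most rows, and the cirrhosis & eplerenone columns are blue over most rows apart from replicate 5.

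In both subunits cirrhosis replicates 1 and 3 were the highest of all rats. The 47 large-subunit proteins include Mrps18a and Mrps30, which carry a small-subunit name but sit in the large subunit. They had a median log2FC of 0.08 in cirrhosis, with 2 risen and 1 fallen, and per-rat levels of 4.70 to 5.27 in cirrhosis against 4.83 to 4.97 in control. The 26 small-subunit proteins had a median of 0.18 with no call, and levels of 4.71 to 5.35 against 4.797 to 5.04. The 44 members with a bacterial counterpart had a median of 0.09 and the 29 without one of 0.16. Mrps36, which despite its name is a part of the alpha-ketoglutarate dehydrogenase complex, was at 14.3 to 21.1 FPM in control, 16.15 to 19.8 FPM in cirrhosis and 12.7 to 22.1 FPM in cirrhosis & eplerenone, with a log2FC of -0.03 in cirrhosis.

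The second question was how members stood in treated cirrhosis against control. No member passed the test in cirrhosis & eplerenone, whereas 5.22% of all genes did. At an unadjusted p below 0.05 there were 9, with Mrpl48 higher and 8 lower (10.8% of members, against 6.31% of all genes). The 8 became 3 without control replicate 4, 5 without control replicate 2 or cirrhosis & eplerenone replicate 1 or 3, and 6 to 11 in the other fits that left out 1 rat. DESeq2 called 2 members, Mrpl15 and Mrpl14, both lower (2.12% of all genes by that tool). Lower log2FC than 0 was found in 61 of 74 members, against 49.6% of all genes, with a median of -0.19 (0.01 over all genes). With library sizes left unscaled 17 members were below 0 and the median was 0.11, but the median of all genes then was 0.32. Relative to all genes the members were at -0.20 with the main scaling and at -0.21 with total counts only. With 4 samples per group no member was called and the median was -0.19.

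Mrpl15 and Mrpl14 both have bacterial counterparts and were the lowest members. Mrpl15 was at 76.1, 90.8, 103 and 86.7 FPM in control, 89.7, 53.8, 74.6, 53.5 and 65.6 FPM in cirrhosis and 51.3, 63.4, 51.7, 61.6 and 67.6 FPM in cirrhosis & eplerenone. Its eplerenone rats were all below the controls, whereas cirrhosis overlapped them. The log2FC against control was -0.59 ± 0.17 (SE, edgeR FDR = 0.061, DESeq2 FDR = 0.021).

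Mrpl14, at the face of the large subunit that meets the small one, was at 82.9, 57.6, 65.9 and 47.8 FPM in control, 66.9, 29.2, 66.5, 40.8 and 57.1 FPM in cirrhosis and 31.5, 38.4, 37.1, 41.3 and 43.3 FPM in cirrhosis & eplerenone. Eplerenone rats were again below every control, and cirrhosis spanned both. The log2FC was -0.73 ± 0.23 (SE, edgeR FDR = 0.080, DESeq2 FDR = 0.042). Groups did not overlap for 5 lower members (6.76%, against 4.46% of all genes), which were Mrpl14, Mrpl15, Mrpl40, Mrps18c and Mrps24. Further low values were those of Mrpl20 (log2FC -0.48, FDR = 0.159), Mrps22 (-0.41, FDR = 0.176) and Mrpl3 (-0.33, FDR = 0.226). The highest after Mrpl48 were Mrps10 (0.49, FDR = 0.510) and Mrpl17 (0.33, FDR = 0.404).

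The third question was whether eplerenone changed members within cirrhosis. No member passed the test, and only 2 genes of 14417 (0.0139%) did. The lowest FDR of a member was 0.312. At an unadjusted p below 0.05, 17 members were lower and 0 higher, and 7.63% of all genes were lower at this level. That count rested on single rats: it was 9 without cirrhosis replicate 3, 31 without cirrhosis replicate 2, 28 without cirrhosis replicate 4 or cirrhosis & eplerenone replicate 5, and 13 to 20 in the other fits. With the label prefix as a term, 6 of 74 members were below that level in either direction, beside 1207 of all 13795 genes. Values below 0 were found in 65 of 74 members (48.9% of all genes), with a median log2FC of -0.30 (0.01 over all genes). The comparison shares its cirrhosis rats with the first one, so that high values of cirrhosis replicates 1 and 3 enter both.

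Mrpl27, near the site of peptide bond formation, was at 112, 50.4, 128, 53.4 and 58.8 FPM in cirrhosis and at 39.5, 41.6, 42.5, 48.9 and 66.0 FPM in cirrhosis & eplerenone, with 48.5 to 64.5 FPM in control. Replicates 1 and 3 of cirrhosis stood alone, and the remaining rats of both groups lay in or near the control range. The log2FC of -0.76 ± 0.26 (SE, FDR = 0.312) was the lowest of all members. Mrpl23, at the exit of the peptide tunnel, showed the same with 49.6, 25.1, 62.7, 29.4 and 24.0 FPM in cirrhosis and 20.6, 23.0, 24.2, 17.5 and 29.5 FPM in cirrhosis & eplerenone (log2FC -0.73 ± 0.25, FDR = 0.312). Both promoters held the ETS letters on the coding strand before the start, which are in capitals. The printed bases lie at chr10:80092245-80092344 (plus strand, Mrpl27) and chr1:207116830-207116929 (plus strand, Mrpl23) of GRCr8.
Mrpl27: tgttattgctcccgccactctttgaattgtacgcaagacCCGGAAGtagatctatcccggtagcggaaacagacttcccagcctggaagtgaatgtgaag
Mrpl23: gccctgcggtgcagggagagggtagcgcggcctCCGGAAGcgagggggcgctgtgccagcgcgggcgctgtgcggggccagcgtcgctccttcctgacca

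Mrps18c, a small-subunit protein of the S18 family, was the only member whose groups did not overlap (1.35% of members, against 0.541% of all genes). It was at 46.1, 31.8, 44.6, 25.8 and 25.3 FPM in cirrhosis and at 22.6, 21.7, 24.3, 22.9 and 21.2 FPM in cirrhosis & eplerenone, with 24.9 to 37.0 FPM in control. The gap between the groups, from 24.3 to 25.3 FPM, was small against the spread of cirrhosis. The log2FC was -0.62 ± 0.18 (SE, FDR = 0.312). With 4 samples per group the log2FC was -0.77 for Mrps18c and -0.79 for Mrpl45, which ties the ribosome to the inner membrane, and the median of the members was -0.32. Both were called there, but both rats left out were chosen by their place on the first component of the same data, each lying toward the other group, and calls over all genes went from 2 to 630 higher and 664 lower of 14126. These calls are therefore not counted as results. The other low members were Mrpl54 (-0.67), Mrps35 (-0.62) and Mrpl58 (-0.55), a release factor that frees stalled ribosomes, with an FDR of 0.312 to 0.316. Mrpl49 (0.55, FDR = 0.469) and Mrps10 (0.39, FDR = 0.569) had the highest values.

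Label prefixes allow the eplerenone comparison within sets of CCl4-treated rats. In prefix 15 the member level was 4.67 in 2 eplerenone rats and 5.08 in 3 cirrhosis rats, a difference of -0.41, with 64 of 74 members lower. In prefix 20 it was 4.76 in 3 eplerenone rats and 4.801 in 2 cirrhosis rats, a difference of -0.04, with 46 members lower. This set holds both rats left out with 4 samples per group, cirrhosis replicate 5 (4.87) and cirrhosis & eplerenone replicate 3 (4.66). The difference in effect between prefixes passed the test in edgeR for 0 of 74 members (lowest FDR 0.374) and for 0 of 13795 genes. At an unadjusted p below 0.05 there were 9 of the 74 members, beside 1689 of the 13795 genes. Leaving out cirrhosis replicate 3 moved the median log2FC of eplerenone within cirrhosis to -0.20, with 63 to 67 members lower over all 14 fits.

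The cytosolic ribosome, set beside the mitochondrial one, held more genes that rose in cirrhosis. Of 73 tested cytosolic ribosomal protein genes (75 in the table), 39 rose (53.4%, against 13.4% of all genes) and 0 fell in cirrhosis. All 73 had a log2FC above 0, and the median was 0.77 against 0.10 in members. The difference between both lists was not tested. Rplp1, of the cytosolic stalk, rose with a log2FC of 1.23 (FDR = 0.018), as did Rps16 (1.23, FDR = 0.018). With 4 samples per group 65 rose, beside 2732 of all 14126 genes. Leaving out single rats gave 2 without control replicate 3 or 5, 6 without control replicate 4, 9 without cirrhosis replicate 3, 11 without cirrhosis replicate 1, 26 without cirrhosis replicate 4, 61 without cirrhosis replicate 5 and 28 to 46 otherwise. All 73 stayed above 0 in each of these fits. Against control, no cytosolic gene passed in cirrhosis & eplerenone, with a median of 0.14 where members had -0.19. Against cirrhosis the medians were -0.66 and -0.30. As in the members, the difference lay mainly among rats of prefix 15, where the mean cytosolic level was lower by a log2 difference of -1.12 with eplerenone (73 of 73 genes lower), against -0.11 among rats of prefix 20 (52 of 73 lower). Prefix 20 holds both rats left out with 4 samples per group, cirrhosis replicate 5 (level 7.44) and cirrhosis & eplerenone replicate 3 (7.74). Its other rats were at 7.96 (cirrhosis replicate 4) and at 7.31 and 7.72 (cirrhosis & eplerenone replicates 4 and 5). The split by prefix was not computed without these 2 rats. In cirrhosis & eplerenone against cirrhosis 0 cytosolic genes passed. At an unadjusted p below 0.05, 62 were lower (84.9%, against 7.63% of all genes). This count was 25 without cirrhosis replicate 3, 36 without cirrhosis replicate 1 or cirrhosis & eplerenone replicate 2, 37 without cirrhosis & eplerenone replicate 1 and 42 to 68 in the other fits. With unscaled libraries 34 genes were below that p in either direction, beside 1598 of all 14417 genes. With the label prefix as a term there were 25, beside 1207 of all 13795 genes. With 4 samples per group 55 were called lower, beside 664 of all 14126 genes. The 2 rats left out of that fit were chosen on the same data, so its calls, with the 65 above, are not counted as results. Many cytosolic ribosomal protein genes have near-identical copies, and reads with several mapping positions were counted at every one of them. From the sequencing, the authors reported the cytosolic small ribosomal subunit as an enriched term among genes raised in cirrhosis and sensitive to eplerenone. They also measured chosen genes of that term by qRT-PCR in an extended cohort of these rats. There they found these genes neither raised in cirrhosis nor reduced by eplerenone.

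**Figure D3:**
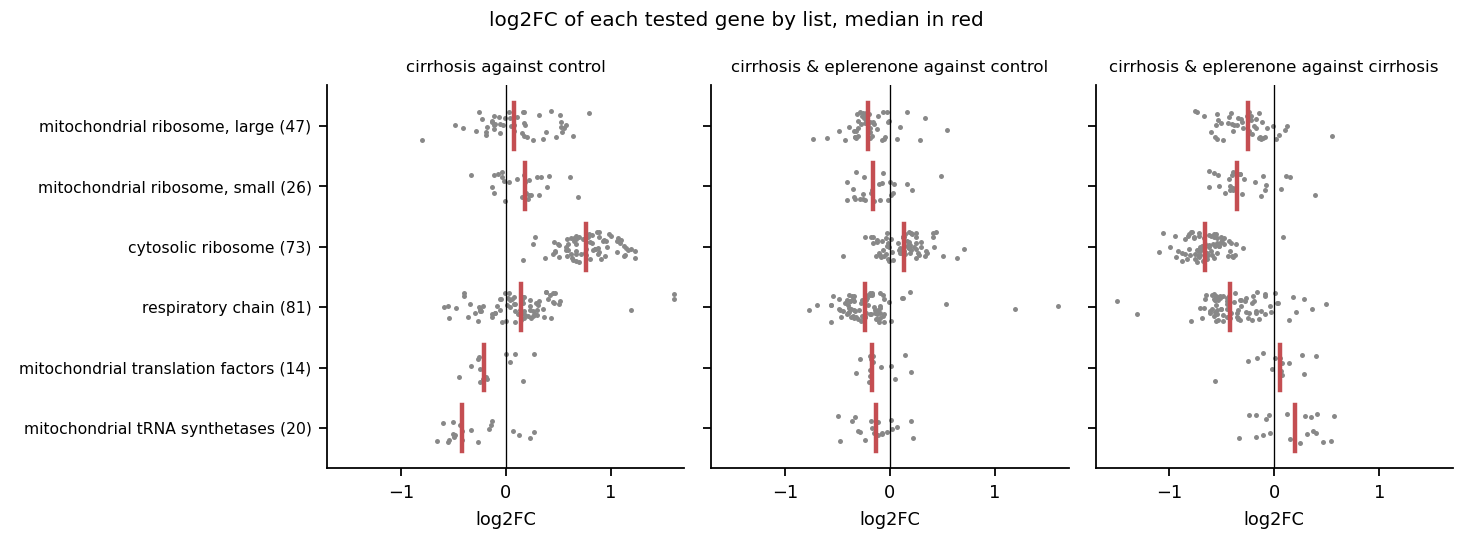
log2FC of each tested gene (grey points) in 6 gene lists for the 3 comparisons, with list medians in red; 3 respiratory chain points beyond 1.6 are drawn at 1.6. In cirrhosis the cytosolic ribosome lies at a median of 0.77 and the subunits of the mitochondrial ribosome at 0.08 and 0.18.

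Compared within each rat, the level of the cytosolic ribosome exceeded that of the mitochondrial ribosome by 2.62, 2.40, 2.33 and 2.23 (mean log2 FPM) in control. The difference was 3.11, 3.02, 3.28, 3.22 and 2.57 in cirrhosis and 2.58, 2.28, 3.08, 2.62 and 2.78 in cirrhosis & eplerenone. Cirrhosis replicates 1 to 4 were all above the controls on this measure, although replicates 2 and 4 had low and replicates 1 and 3 high member levels, and replicate 5 lay in the control range. Eplerenone replicates 1 and 2 lay in the control range, and replicate 4 lay just above it. Replicate 5 lay further above it, and replicate 3 was at the level of cirrhosis replicates 1 to 4.

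The list of nuclear-encoded respiratory chain genes covers complexes that, apart from complex II, also hold subunits made by the mitochondrial ribosome. Its genes kept nearly the same distance to the members in all rats. Their level exceeded that of the members by 1.68 to 1.85 in the controls. The range was 1.66 to 1.89 in cirrhosis and 1.61 to 1.74 with eplerenone. Of 81 tested genes 3 rose (Atp5if1, an inhibitor of the ATP synthase, with a log2FC of 1.20, and the low Cox6b2 and Cox6a2) and 1 fell (Uqcrfs1, the iron-sulfur protein of complex III, -0.54) in cirrhosis. Median log2FC were 0.15 in cirrhosis against control, -0.24 in cirrhosis & eplerenone against control, where Ndufa1 fell by 0.77 on the log2 scale, and -0.42 for eplerenone within cirrhosis.

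**Figure D4:**
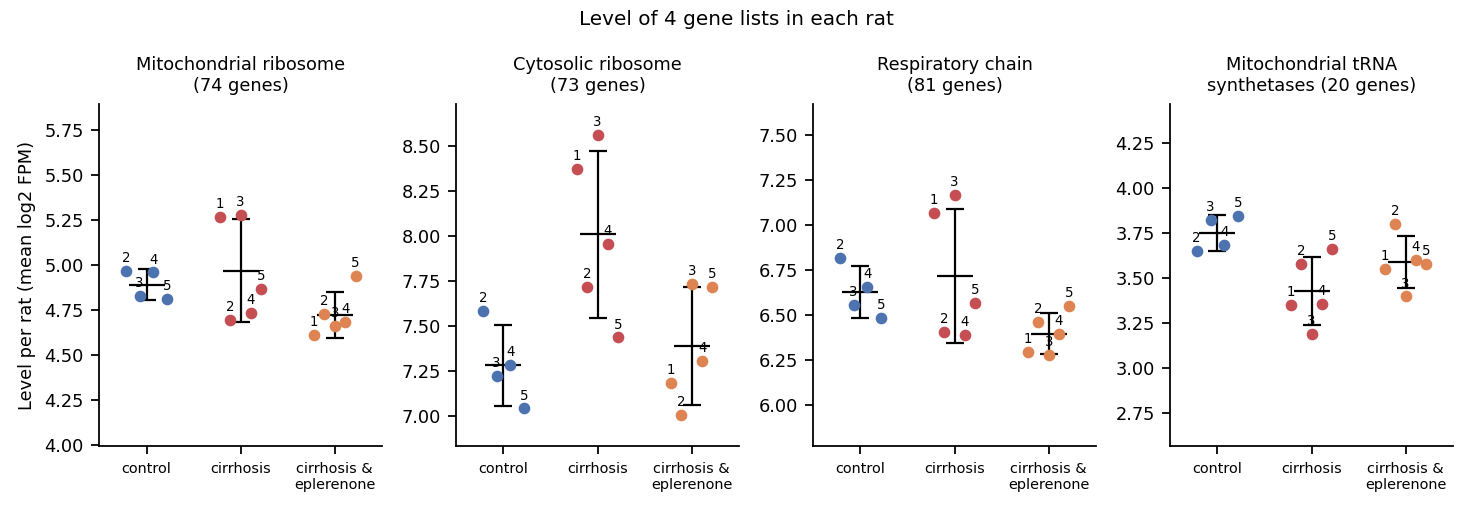
Level of each rat (mean log2 FPM over the tested genes of a list), labelled by replicate number, with the mean and SD of each group; all panels span the same number of log2 units. Cirrhosis replicates 1 and 3 are highest in the mitochondrial ribosome (5.27 and 5.28), the cytosolic ribosome and the respiratory chain, and at the low end in the mitochondrial tRNA synthetases.

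Other genes of mitochondrial translation had lower medians in cirrhosis than the ribosomal proteins, a difference that was not tested. Synthetases charge tRNAs with amino acids, and the list of 20 mitochondrial ones also holds Qrsl1, Gatb and Gatc, which are not synthetases themselves. These 20 genes had a median log2FC of -0.42 in cirrhosis, with 16 below 0, and Hars2 fell (-0.65, FDR = 0.039). Relative to the members of the same rat, their level was -1.32 to -0.97 in the controls and -1.36 to -0.92 with eplerenone. It was -1.92 and -2.09 in cirrhosis replicates 1 and 3 and -1.38 to -1.12 in the other cirrhosis rats. The 14 genes listed as translation factors, Lrpprc and Slirp among them, had a median of -0.20 with no call. They ranged from -0.45 (Gfm1, an elongation factor, FDR = 0.089) to 0.27 (Slirp). Tufm, the elongation factor that brings tRNA, was at 0.16 and Lrpprc, which stabilizes mitochondrial messenger RNA, at -0.25. The 24 assembly and RNA modification genes had a median of -0.01 with no call, from -0.49 (Tfb1m) to 0.69 (Mpv17l2, FDR = 0.101).

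**Figure D5:**
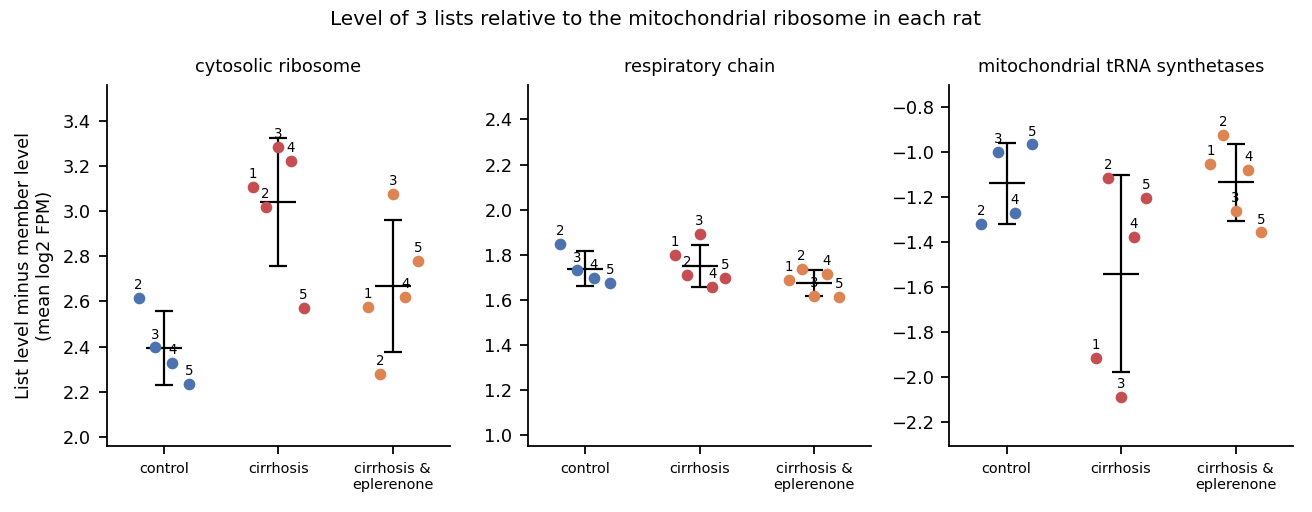
Level of 3 gene lists minus the level of the mitochondrial ribosome in the same rat (mean log2 FPM), labelled by replicate number, with the mean and SD of each group. The cytosolic ribosome stands 3.02 to 3.28 above the members in cirrhosis replicates 1 to 4 and 2.23 to 2.62 above them in control, and the respiratory chain stands 1.61 to 1.89 above them in all rats.

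Of 5 ribosomal proteins with other symbols, Aurkaip1, a small-subunit protein, fell in cirrhosis. It was at 452, 284, 520 and 305 FPM in control, 131, 196, 156, 189 and 307 FPM in cirrhosis and 243, 261, 279, 249 and 196 FPM in cirrhosis & eplerenone. Cirrhosis replicate 5 alone reached the control range, and all eplerenone rats were below it. The log2FC was -0.99 ± 0.25 (SE, FDR = 0.014) in cirrhosis and -0.67 ± 0.25 (FDR = 0.137) in cirrhosis & eplerenone. The other 4, Dap3, Ptcd3, Gadd45gip1 and Chchd1, had values of 0.12 to 0.29 in cirrhosis, and none passed.

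Among 9 regulators of mitochondrial biogenesis, Gabpa (-0.59, FDR = 0.044) and Yy1 (-0.84, FDR = 0.046), 2 factors whose elements were searched above, fell in cirrhosis. Gabpa was at 13.99 to 18.9 FPM in control, 8.71 to 14.7 FPM in cirrhosis and 12.1 to 18.1 FPM in cirrhosis & eplerenone. Nrf1 had a log2FC of 0.49 (FDR = 0.076), Esrra of 0.19, Myc of 0.29 and Ppargc1a, at 0.205 to 1.06 FPM in cirrhosis, of -0.06. Of 12 genes of mitochondrial transcription and replication, Polg2, of the DNA polymerase, fell (-0.71, FDR = 0.042), and Tfam (-0.13) and Polrmt (-0.35) did not pass. Of 16 import and membrane genes, Vdac2, an outer membrane channel, rose (0.52, FDR = 0.045) and Cs, the citrate synthase, fell (-0.56, FDR = 0.035). In cirrhosis & eplerenone against either group, none of the genes of these mitochondrial lists outside the respiratory chain passed. With 1 rat left out in turn, Aurkaip1 stayed called in 13 of 14 fits, and Hars2, Gabpa, Yy1, Polg2, Vdac2 and Cs in 4 to 7.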

How the data were processed

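Poly(A) RNA of rat liver was read 150 bp from both ends. The authors mapped reads to rn6 with HISAT2 2.1.0 and used featureCounts on exons to obtain 1 value per gene, in which a read with several mapping positions counts at every one of them. The deposited values are raw counts without normalization or filter, for 32623 genes and 14 of the 15 labelled samples. Control replicate 1 was not analysed here. Groups came from the sample labels.

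Counts were filtered with filterByExpr (smallest count 10, 14417 genes kept) and scaled by TMM, and the 3 groups were fitted in 1 model with edgeR 4.0.16 in R 4.3.3 (quasi-likelihood test). The Benjamini-Hochberg FDR was taken across the whole set of tested genes, and genes below 0.05 were called. SE were derived from the F statistic. FPM are counts scaled to 1e+06 counts of the TMM library size, and log2 FPM used 0.25 as pseudocount. Steps were tested on simulated data. Each sample is from another rat.

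Alternatives were DESeq2 1.42.0, calls by both tools, other scaling and filters, protein coding genes only, 2 groups in the fit, 4 samples per group, the replicate number as a block and leaving out each sample. Members, gene lists and the 2 rats left out were chosen with earlier results of these data known. Named were called members, the 5 highest and lowest of each comparison, members fixed for their roles, called genes or extremes of the lists, and 9 regulators and factors. Mrpl11 is not analysed here. Genes named for not overlapping (Mrpl40, Mrps24) or for calls under an alternative (Mrpl45) were chosen after their values were seen. Promoter windows were those of RefSeq for GRCr8, and no coordinates were converted.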

Additional observations from a re-analysis of the deposited data

Results flagged for a closer look

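Mrpl3, a large-subunit protein with a bacterial counterpart, was at 35.3 FPM in cirrhosis replicate 2, apart from the other 4 cirrhosis rats at 29.2 to 30.5 FPM. The gap was 0.784 of the range of the group. This was the only 1 of 90 groups of samples tested with such a distant sample, and chance marks about 1 in 20.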

How the results depend on the processing

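Between control and cirrhosis, 3 members were called, against 16 with library sizes left unscaled (3055 of all 14417 genes rose and 366 fell there), 1 without a filter, 5 with 4 samples per group (2732 of 14126 genes rose and 2100 fell) and 0 to 5 with single samples left out. With the replicate number as a block there were 0; the numbers do not pair rats, since correlations of same-numbered rats ranged from -0.34 to 0.20. For cirrhosis & eplerenone against control the 0 calls became 2 with DESeq2, 1 with unscaled libraries, 2 with only both groups in the fit and 0 to 1 with single samples left out. For eplerenone within cirrhosis they became 2 with 4 samples per group (630 genes higher, 664 lower). Unscaled libraries moved the median log2FC to 0.39 in cirrhosis and turned it to 0.11 in cirrhosis & eplerenone against control. The log2FC of Mrpl43 for eplerenone within cirrhosis ranged from -0.059 to 0.099 with single samples left out. Among 933 values of single genes, 811 kept sign and side of the threshold, 107 lost it, 13 passed it and 2 turned. The causes were not tested. At 3 counts per 0.121 to 0.191 FPM, depth limits Mrps21l and Mrps21l.1.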
